A study of Mus musculus with 6 samples.

Results

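The miRNAs described here are the 9 mature arms that the deposited annotation names from 5 hairpins of mouse chromosome 12 lying opposite the gene Rtl1: mmu-miR-431-5p, mmu-miR-433-5p, mmu-miR-433-3p, mmu-miR-127-5p, mmu-miR-127-3p, mmu-miR-434-5p, mmu-miR-434-3p, mmu-miR-136-5p and mmu-miR-136-3p. They were taken by name, and the rule itself uses no measured value. They are 9 of 782 miRNA names with a value above 0 in the table. Their values come from 534 rows of unique reads, of which 532 were above 0 in at least 1 sample.

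Argonaute (Ago) proteins were pulled down and the short RNAs they held were sequenced, from the brains of 6 mice in 2 groups of 3. WT mice were male controls 3 months old, and Tau tg mice were males that carried a transgene for the tau45-230 fragment of human tau under the Thy 1.2 promoter, which drives expression in neurons, on a C57BL/6J background. The tissue is given as cortex and hippocampus combined in the protocol and as hippocampus in the sample names. The comparison asked whether the content of the RNA-induced silencing complex (RISC) differed in a brain with a toxic tau fragment. Values are read numbers scaled by the authors to a common library size (RPM), and are levels in RISC rather than in whole tissue. In such bulk samples, fewer cells of a type and less RNA per cell cannot be told apart.

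A miRNA hairpin is cut into a 5p and a 3p arm, and Ago keeps mainly 1 of them. The retained strand finds targets through its seed near the 5′ end, so a shift of the 5′ end by a single base gives the strand another seed. The 5 hairpins sit in the imprinted Dlk1-Dio3 domain and are made from the maternal chromosome, whereas the retrotransposon-derived gene Rtl1 is expressed from the paternal one. Because they are transcribed antisense to Rtl1, the arms pair perfectly with its mRNA and are known to direct its cleavage, and the domain's miRNAs are abundant in brain and placenta.

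All 5 hairpins lay on the plus strand of chromosome 12 of GRCm38, between 109590447 and 109595388, a span of 4942 bases. Each was inside exon 2 of Rtl1 and within its coding sequence, which is on the minus strand from 109590172 to 109595403. The hairpins were Mir431 (109590447 to 109590537), Mir433 (109591715 to 109591838), Mir127 (109592846 to 109592915), Mir434 (109594506 to 109594599) and Mir136 (109595327 to 109595388). The RefSeq mature sequences (GRCm38.p6) are shown because the seed decides which targets an arm can pair with. Capitals mark the seed, bases 2 to 8.
miR-431-5p: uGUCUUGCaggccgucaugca
miR-433-5p: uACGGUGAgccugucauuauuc
miR-433-3p: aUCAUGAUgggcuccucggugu
miR-127-5p: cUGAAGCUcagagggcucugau
miR-127-3p: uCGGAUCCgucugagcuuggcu
miR-434-5p: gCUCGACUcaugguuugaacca
miR-434-3p: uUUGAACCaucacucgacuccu
miR-136-5p: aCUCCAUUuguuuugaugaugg
miR-136-3p: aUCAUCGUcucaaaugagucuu

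No 2 of these arms shared a seed, and no other mature mouse miRNA name in the RefSeq table carried any of the 9. Each full mature sequence was complementary to the Rtl1 mRNA at exactly 1 position. The 3 sites below, read 5′ to 3′ on the Rtl1 mRNA, are those of the most abundant arm and of both miR-136 arms, whose ratio is compared between the groups further on. Capitals mark the bases that face the seed.
Rtl1 opposite miR-127-3p: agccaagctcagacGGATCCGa
Rtl1 opposite miR-136-5p: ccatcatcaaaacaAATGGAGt
Rtl1 opposite miR-136-3p: aagactcatttgagACGATGAt
The complement of the seed alone also occurred elsewhere in the Rtl1 transcript for some arms, at 4 places in all for miR-434-3p at 3 for miR-431-5p and miR-434-5p and at 2 for miR-136-5p. Of short RNA from the sense strand of Rtl1, 1 unique read in RISC matched the Rtl1 transcript exactly. The authors annotated 3 unique reads as Rtl1 mRNA. By either count the highest level in any sample was 6.09 RPM.

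The miR-136 hairpin is the only one of the 5 whose main arm differed between samples, with 29.0% to 88.4% of its RPM from the 5p arm. Its RefSeq sequence is shown with the 5p arm first and the 3p arm second, both in capitals.
Mir136 hairpin: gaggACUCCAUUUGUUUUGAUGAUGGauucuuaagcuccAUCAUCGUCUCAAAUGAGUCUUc

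Between 998248 and 6879551 reads per sample lay behind the values, with WT 3 the shallowest and Tau tg 1 the deepest, so that a count of 3 reads stood for between 0.427 and 2.75 RPM. The 9 arms together were covered by between 17319 and 157167 reads. miRNAs made up 82.7% to 92.4% of the RPM. No sample was a copy of another.

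The 9 arms together held 20620 ± 4552 RPM in the WT samples and 20937 ± 2716 RPM in the Tau tg samples (SD, n = 3), which was between 2.10% and 3.20% of all miRNA RPM. The sums were 21007, 24966 and 15887 RPM in the WT samples and 22363, 22643 and 17806 RPM in the Tau tg samples. The lowest sum was in WT 3, which was also the shallowest sample, and the highest was in WT 2. The groups overlapped, and their means differed by less than the spread within either.

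A single arm dominated. miR-127-3p, the guide strand of its hairpin, ranked 22nd of all miRNA names and supplied 49.3% of the RPM of the 9 arms. It was at 10025, 10523 and 7647 RPM in the WT samples, against 10722, 13538 and 9010 RPM in the Tau tg samples. In all 6 samples it exceeded miR-434-3p, the next arm, which ranked 47th with between 3372 and 5044 RPM. The order then ran miR-136-5p, miR-136-3p, miR-433-3p, miR-434-5p, miR-127-5p, miR-431-5p and miR-433-5p, with means over the 6 samples of 2541, 1515, 1184, 637, 318, 212 and 66.3 RPM. Among neighbours in that order the ranges did not overlap for miR-127-3p and miR-434-3p, for miR-434-5p and miR-127-5p, and for miR-431-5p and miR-433-5p. The ranges of the other neighbours overlapped, and miR-136-5p exceeded miR-136-3p in 3 of 6 samples, all of them WT.

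**Figure D1:**
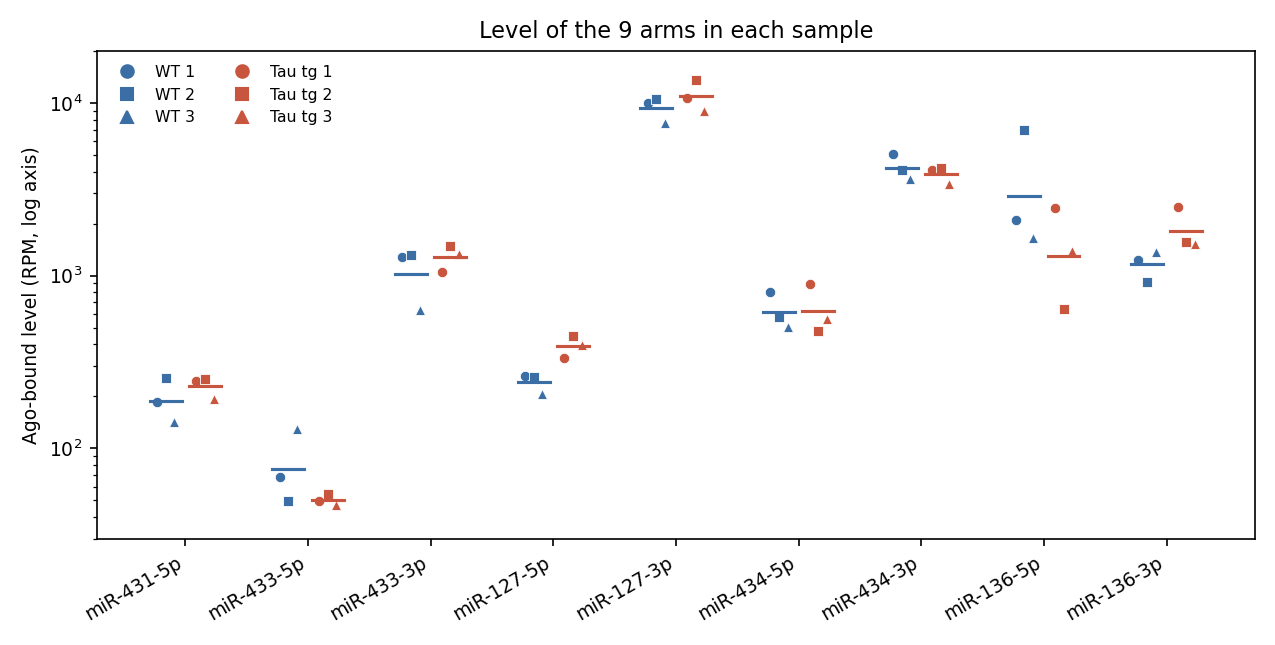
Level of each of the 9 arms (RPM, log axis) in the 3 WT and 3 Tau tg samples, with a marker shape per replicate and a line at the geometric mean of the group. The values span 47.1 RPM (miR-433-5p in Tau tg 3) to 13538 RPM (miR-127-3p in Tau tg 2), the groups do not overlap for miR-127-5p and miR-136-3p, and miR-136-5p stands high in WT 2.

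In all but the miR-136 and miR-431 hairpins the 3p arm was the main one in RISC. The 5p arm made up 2.40% to 4.21% of the RPM of the miR-127 hairpin, 10.2% to 18.0% of that of miR-434 and 3.41% to 17.0% of that of miR-433. The miR-431 hairpin had the opposite bias, with 60.1% to 90.4% from miR-431-5p. Its partner mmu-miR-431-3p was at 45.4, 169 and 30.3 RPM in the WT samples, against 70.0, 26.8 and 47.5 RPM in the Tau tg samples, highest in WT 2. The miR-136 hairpin was split between its arms, with 29.0% to 88.4% from the 5p arm.

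Differences between the groups were small for most arms and for none large enough to pass adjustment over all miRNAs. limma, fitted to log2(RPM + 1) with a trend of variance on mean, tested 689 miRNAs, and all 9 arms passed its filter of at least 1 RPM on average. The unadjusted p was under 0.05 for 25 of the 689, or 3.63%, and 1 of the 9 arms, miR-136-5p. At an adjusted p under 0.05 limma called 0 miRNAs, or 0%, edgeR called 0 and DESeq2 called 5, none of them among the 9 arms. The median log2 difference of the 9 arms was 0.23 and that of the 689 miRNAs was 0.25. Since the median of all miRNAs was above 0 on this scale, differences relative to it are also given. They follow here for the 6 arms other than miR-136-5p, miR-136-3p and miR-127-5p. They were -0.014 for miR-127-3p, -0.23 for miR-434-5p and -0.36 for miR-434-3p. For miR-433-5p the value was -0.83, for miR-433-3p 0.08 and for miR-431-5p 0.03. In this fit miR-127-3p and miR-434-5p thus lay above 0 but below the median miRNA. That median depended on the setting, at 0.147 with a mean of at least 10 RPM, 0.046 in edgeR and 0.00597 in DESeq2. In those settings miR-127-3p, at 0.23, 0.13 and 0.092, lay above the median. Differences against the median miRNA below are those of the main fit.

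miR-136-5p was the arm with the largest difference. It was at 2100, 7003 and 1658 RPM in the WT samples, against 2470, 637 and 1379 RPM in the Tau tg samples. The groups overlapped, since Tau tg 1 lay above 2 of the 3 WT samples, and the extremes were WT 2 and Tau tg 2. The log2 difference, Tau tg minus WT, was -1.16 ± 0.52 (SE, n = 3 per group), which is -1.41 against the median miRNA. The limma p was 0.0400 and the adjusted p 0.896. Without WT 2 it was -0.53 with a limma p of 0.263, and without Tau tg 2 it was -0.65 with a limma p of 0.332. Over the other analysis settings the unadjusted p ran from 0.0110 in DESeq2 to 0.181 in limma without the trend.

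The opposite strand of the same hairpin had a difference of the opposite sign. miR-136-3p was at 1237, 919 and 1370 RPM in the WT samples, against 2486, 1561 and 1518 RPM in the Tau tg samples. All 3 Tau tg samples lay above all 3 WT samples, with a log2 difference of 0.64 ± 0.33 (SE), which is 0.39 against the median miRNA. Its limma p of 0.0700 and adjusted p of 0.896 did not pass the threshold.

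miR-127-5p, the minor strand of the most abundant hairpin, showed the same separation. It was at 263, 259 and 206 RPM in the WT samples, against 335, 447 and 396 RPM in the Tau tg samples. The lowest Tau tg sample lay above the highest WT sample, and the log2 difference was 0.69 ± 0.38 (SE), which is 0.44 against the median miRNA. The limma p was 0.0860 and the adjusted p 0.896. These 2 of the 9 arms had groups that did not overlap, against 45 of the 472 miRNAs above 0 in all 6 samples, or 9.53%.

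The other 6 arms overlapped between the groups and had limma p-values of 0.896 to 0.996 after adjustment. miR-127-3p differed by 0.23 ± 0.31 on the log2 scale (SE, limma adjusted p = 0.896), by 0.071 under median-of-ratios scaling, and by 0.078 without Tau tg 2 to 0.37 without Tau tg 3. miR-434-3p was at 5044, 4066 and 3598 RPM in the WT samples, against 4103, 4187 and 3372 RPM in the Tau tg samples, and differed by -0.12 ± 0.30 (SE, limma adjusted p = 0.954). Its partner miR-434-5p was at 802, 578 and 505 RPM in the WT samples, against 899, 475 and 561 RPM in the Tau tg samples, a difference of 0.01 ± 0.37 (SE, limma adjusted p = 0.996). The direction of miR-434-5p was not fixed, since it turned negative under median-of-ratios scaling, scaling to miRNA reads, edgeR and DESeq2.

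miR-433-3p was at 1283, 1314 and 632 RPM in the WT samples, against 1052, 1491 and 1331 RPM in the Tau tg samples. The low value was that of WT 3, and the difference of 0.32 ± 0.36 (SE, limma adjusted p = 0.896) became -0.02 without it. miR-433-5p, the least abundant arm, was at 67.9, 49.5 and 129 RPM in the WT samples, against 49.4, 54.4 and 47.1 RPM in the Tau tg samples. WT 3 was high for this arm, and the difference was -0.59 ± 0.63 (SE, limma adjusted p = 0.896), or -0.20 without it. miR-431-5p was at 185, 255 and 142 RPM in the WT samples, against 246, 253 and 192 RPM in the Tau tg samples, which differed by 0.28 ± 0.43 (SE, limma adjusted p = 0.914), or by 0.073 without WT 3 to 0.49 without WT 2. WT 3 held the lowest value of 4 of the 9 arms and Tau tg 2 the highest of 3.

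**Figure D2:**
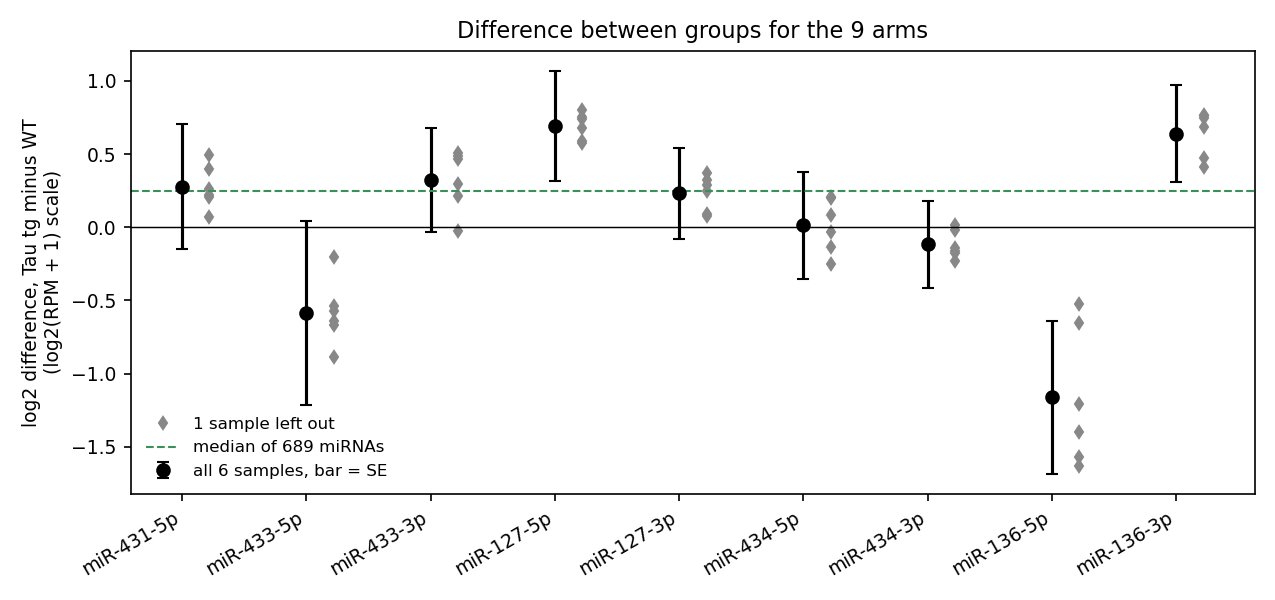
Log2 difference (Tau tg minus WT, on the log2(RPM + 1) scale) of each arm from limma, with its standard error, and beside it the 6 values obtained with 1 sample left out. The dashed line is the median of the 689 miRNAs at 0.25, and the value of miR-136-5p ranges from -1.63 to -0.53 with 1 sample left out.

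Both arms of a hairpin come from the same precursor, and the ratio of their RPM within a sample does not depend on how the sample was scaled. The miR-136 hairpin leaned to its 5p arm in WT. Its arms were nearly equal in Tau tg 1 and Tau tg 3, and it clearly leaned to its 3p arm in Tau tg 2 alone. The ratio of 5p to 3p was 1.70, 7.62 and 1.21 in WT and 0.994, 0.408 and 0.909 in Tau tg. Every WT value was above 1 and every Tau tg value below 1, with geometric means of 2.50 and 0.717, a ratio 3.49-fold lower in Tau tg. The mean log2 ratio was 1.32 ± 1.41 in WT and -0.48 ± 0.71 in Tau tg (SD, n = 3). The two-sided exact permutation test gave a p of 0.1, the smallest that 3 against 3 samples allow, and 0.2 after adjustment over 4 hairpins. WT 2 lay farthest out, and without it the log2 difference was -0.999, with the remaining values still on either side of 1.

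The miR-127 hairpin differed in the other direction, and by less. Its 5p to 3p ratio was 0.0262, 0.0246 and 0.0270 in WT and 0.0312, 0.0330 and 0.0440 in Tau tg. The 3 WT samples agreed closely and all lay below the Tau tg samples, with a log2 difference of 0.46 (two-sided exact permutation p = 0.1, adjusted p = 0.2). The ratios of miR-434 and miR-433 overlapped between the groups. The ratio of miR-434 was 0.159, 0.142 and 0.140 in WT and 0.219, 0.113 and 0.166 in Tau tg (exact permutation p = 0.7). The ratio of miR-433 was 0.0529, 0.0376 and 0.205 in WT and 0.0469, 0.0365 and 0.0353 in Tau tg (exact permutation p = 0.2), and its high value in WT 3 carried most of the difference, which shrank from -0.92 to -0.19 on the log2 scale without that sample and to -0.016 with the most abundant read of each arm alone.

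For 2 of these 4 hairpins the groups did not overlap, against 17 of the 137 hairpin names with both arms above 0 in all 6 samples, or 12.4%. By size, the shift of miR-136 was the 13th of the 137 and the 2nd of the 51 hairpins with both arms at a mean of at least 100 RPM. Its spread among the WT samples was likewise the 2nd of those 51. The shift of miR-127 was the 22nd of the 51, with the smallest spread among WT samples of them all.

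**Figure D3:**
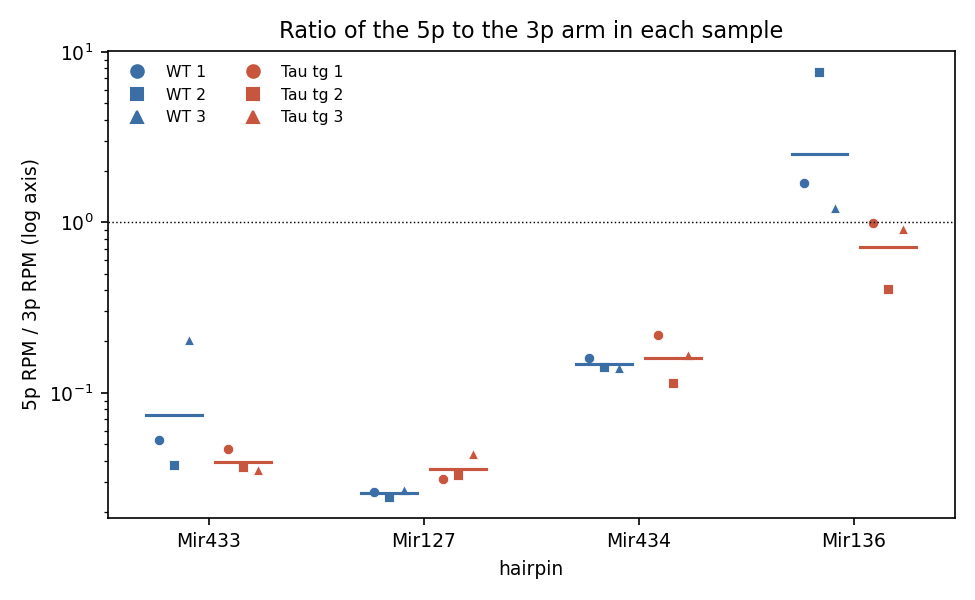
Ratio of 5p to 3p RPM (log axis) of the 4 hairpins with both arms among the 9, in each sample, with a line at the geometric mean of the group and a dotted line at 1. The miR-136 ratios of WT (1.21 to 7.62) lie above those of Tau tg (0.408 to 0.994), and the miR-127 ratios of WT (0.0246 to 0.0270) lie below those of Tau tg (0.0312 to 0.0440).

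Reads of an arm are not 1 sequence but a family with different ends. The 5′ end matters for the toxicity measure of the study, the 6mer seed viability, which is the percentage of cells that survive when a short RNA with a given seed at positions 2 to 7 is introduced, averaged over 3 murine cell lines. A low value marks a toxic seed. Over the 6 samples together, the most common seed of all 9 arms was that of the RefSeq mature sequence, and for 5 of them, miR-433-5p, miR-433-3p, miR-127-3p, miR-434-3p and miR-431-5p, it made up at least 90.1% of the RPM in every sample. The viabilities of the common seeds ran from 16.2% for miR-127-5p to 85.6% for miR-434-3p. In between lay miR-127-3p with 33.9%, miR-431-5p with 49.7%, miR-434-5p with 70.8%, miR-433-5p with 71.2%, miR-136-5p with 71.4%, miR-433-3p with 79.4% and miR-136-3p with 83.4%.

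Since miR-127-3p is abundant and its seed lies under 50% viability, a larger share of the RPM of the 9 arms than of miRNAs at large had a seed under that limit. Weighted by RPM, 50.7%, 43.0% and 52.8% of their reads in WT and 53.7%, 64.2% and 55.1% in Tau tg had a seed viability under 50%. Among all miRNA reads this share was 22.6% to 24.97%. The weighted mean viability of the 9 arms lay closer to that of all miRNA reads. It was 56.2% ± 1.33 in WT and 52.7% ± 2.18 in Tau tg (SD, n = 3), against 58.5% ± 1.35 and 57.7% ± 0.350. By sample the 9 arms were at 56.0%, 57.6% and 55.0% in WT and at 54.2%, 50.2% and 53.6% in Tau tg, without overlap. How often other sets of miRNAs separate in this way was not counted. For the 9 arms the share under 50% was lowest in WT 2, where miR-136-5p was highest, and highest in Tau tg 2, where miR-127-3p was highest. For this share the groups stood apart only between 52.8% and 53.7%, and no test was made of either measure.

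miR-127-5p occurred with a pair of 5′ ends. The reads below are its most abundant read and the most abundant one starting 2 bases further in, with the seed at positions 2 to 7 in capitals.
miR-127-5p, RefSeq 5′ end: cTGAAGCtcagagggctctgatt
miR-127-5p, 5′ end 2 bases inward: gAAGCTCagagggctctgatt
The first seed has a viability of 16.2% and the second of 54.6%. Reads with the RefSeq seed made up 39.0%, 31.9% and 57.8% of the arm in WT and 53.9%, 69.7% and 73.5% in Tau tg. The groups overlapped, and the shares of 42.9% ± 13.4 and 65.7% ± 10.4 (SD, n = 3) were compared by the two-sided exact permutation test (p = 0.2, or 0.853 adjusted over 16 shares). In RPM, the reads with the RefSeq seed were at 103, 82.7 and 119 in WT and at 180, 312 and 291 in Tau tg, while those with the inward seed were at 122, 133 and 83.5 in WT and at 141, 131 and 90.4 in Tau tg. The higher mean of miR-127-5p in Tau tg lay in the reads with the RefSeq seed.

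miR-136-3p was the most varied arm, with 3 common 5′ ends. The most abundant read of each is given with the seed at positions 2 to 7 in capitals.
miR-136-3p, RefSeq 5′ end: aTCATCGtctcaaatgagtct
miR-136-3p, 5′ end 1 base outward: cATCATCgtctcaaatgagtct
miR-136-3p, 5′ end 1 base inward: tCATCGTctcaaatgagtctt
Their viabilities were 83.4%, 37.3% and 30.2%. The RefSeq seed made up 37.6% to 46.3% of the arm over the 6 samples, the outward one 23.5% to 41.3% and the inward one 14.4% to 28.8%. The share of the RefSeq seed was 41.8% ± 4.31 in WT and 46.1% ± 0.154 in Tau tg (SD, n = 3), with groups that overlapped.

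miR-434-5p also had a second 5′ end, 1 base outward, at 25.01% to 45.6% of its RPM, and here both seeds had a similar viability of 70.8% and 74.8%. Its most abundant read began at the RefSeq position.
miR-434-5p: gCTCGACtcatggtttgaacca
miR-136-5p began at the RefSeq position in 89.0% to 98.2% of its RPM. A minor form that started 2 bases outward had the seed with the lowest viability of any here, 3.70%, and made up 0.610% to 8.40% of the arm, least in WT 2 and most in Tau tg 2, the samples in which the arm itself was highest and lowest. In RPM this form was at 60.4, 42.7 and 92.6 in WT and at 106, 53.5 and 43.0 in Tau tg, and the groups overlapped.

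**Figure D4:**
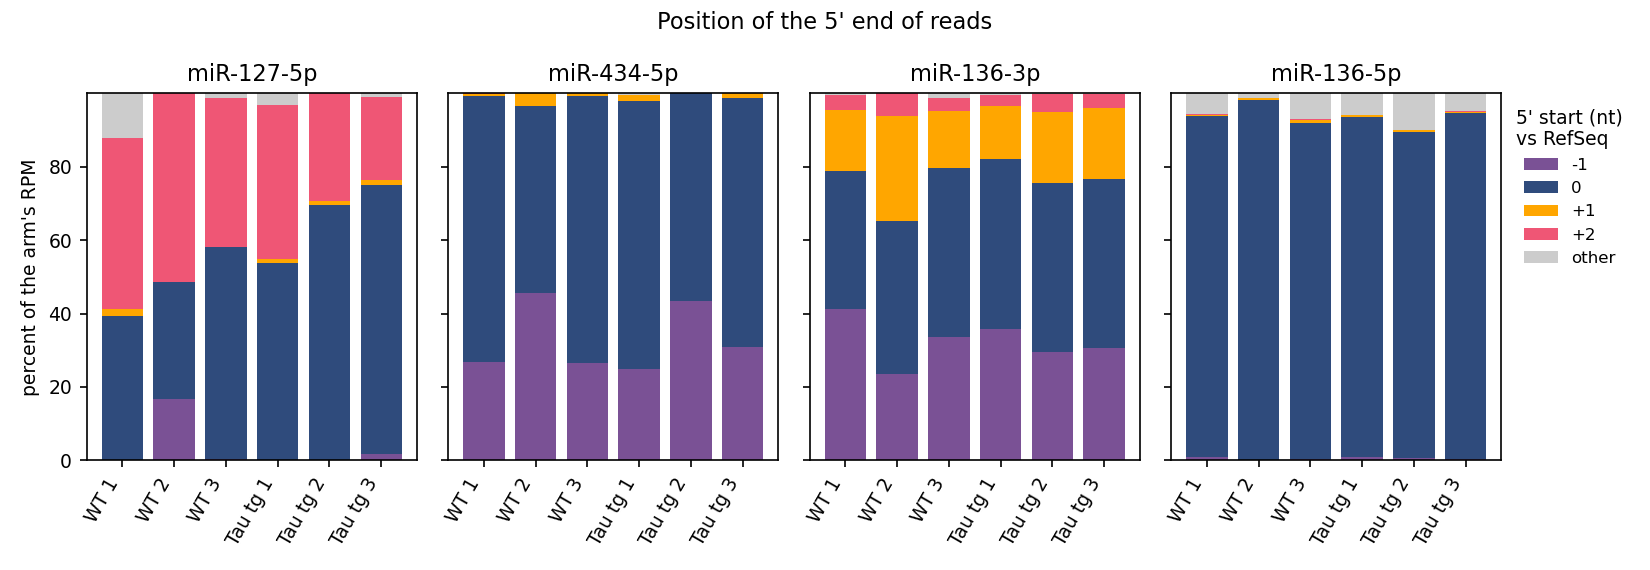
Percent of the RPM of 4 arms by the position of the 5′ end of the read relative to the RefSeq mature sequence, 1 stacked bar per sample, with reads at other positions or not placed on the hairpin in grey. The RefSeq position of miR-127-5p takes 31.9% to 57.8% in WT and 53.9% to 73.5% in Tau tg, and miR-136-3p is split over 3 main positions in every sample.

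At the 3′ end, untemplated bases added to the sequence of the hairpin were found in 17.3% ± 3.53 of the miR-127-3p RPM in the WT samples and 16.8% ± 2.72 in Tau tg (SD, n = 3). Its most abundant reads differed only in length, and the 20-base form came first at 3219, 3772 and 2557 RPM in the WT samples and 3551, 4974 and 3056 RPM in the Tau tg samples, ahead of the 22-base RefSeq form at 2021 to 3562 RPM.
miR-127-3p, most abundant read: tCGGATCcgtctgagcttgg
Across the 8 arms with a mean of at least 100 RPM, 16 shares were tested, that of the common seed and that of untemplated 3′ ends. None had groups that did not overlap, and the lowest adjusted p of the exact permutation test was 0.853.

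Read length set the miR-136-5p of WT 2 apart. Reads of 23 or more bases were 41.9% of its RPM in that sample and 17.6% to 26.4% in the other 5. Its 23-base read was at 243, 2619 and 304 RPM in the WT samples, against 456, 80.3 and 280 RPM in the Tau tg samples, and its 22-base read at 1268, 3379 and 960 RPM in the WT samples, against 1318, 340 and 655 RPM in the Tau tg samples. Among all miRNA reads the share of 23 or more bases was 20.45% to 24.5%, with WT 2 at 21.7%, inside the range of the others.
miR-136-5p, 22 bases: aCTCCATttgttttgatgatgg
miR-136-5p, 23 bases: aCTCCATttgttttgatgatgga

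Long reads took a larger share of miR-434-5p in Tau tg. They made up 3.68%, 1.06% and 4.73% in WT and 8.84%, 14.96% and 12.4% in Tau tg, without overlap. The share for miR-433-3p was 7.63%, 8.61% and 9.29% in WT and 6.59%, 7.24% and 7.01% in Tau tg, lower in Tau tg and again without overlap. These 2 arms were singled out after their values were seen and no test was made, and among the 276 miRNAs with a mean of at least 100 RPM the groups did not overlap for 18, or 6.52%. The long miR-434-5p reads were largely a read that began 1 base outward and ended at the RefSeq 3′ end, at 29.0, 4.07 and 21.1 RPM in the WT samples, against 66.0, 71.1 and 57.7 RPM in the Tau tg samples.
miR-434-5p, long read: aGCTCGActcatggtttgaacca

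**Figure D5:**
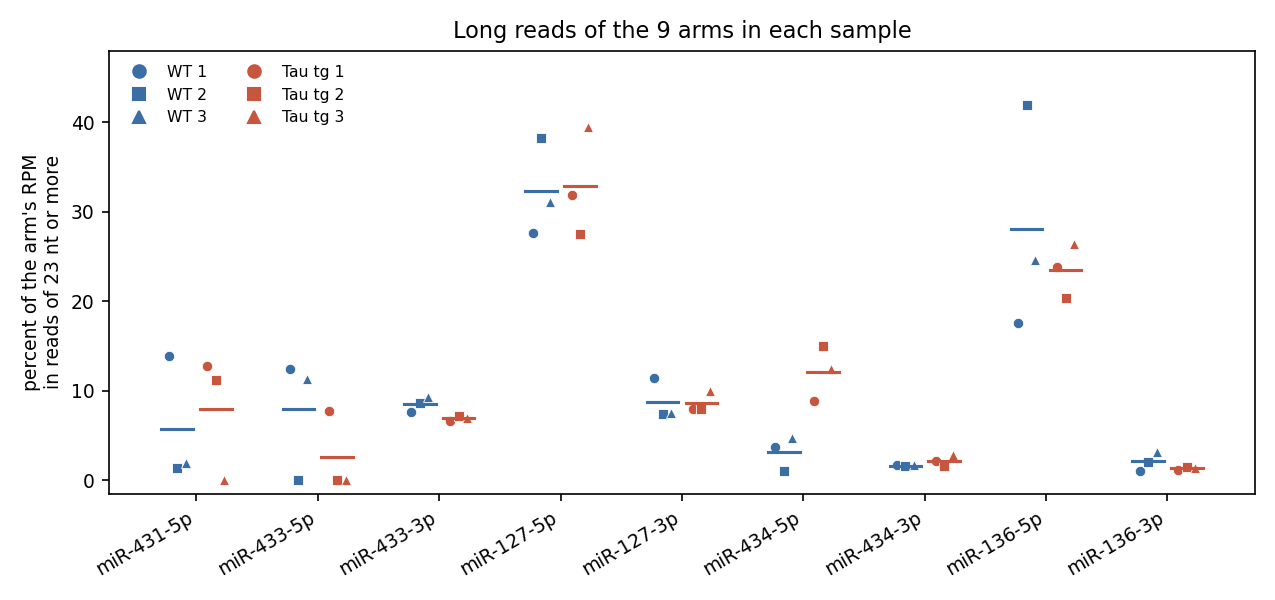
Percent of the RPM of each arm in reads of 23 or more bases, in each sample, with a line at the mean of the group. miR-136-5p reaches 41.9% in WT 2, and for miR-434-5p the Tau tg samples (8.84% to 14.96%) lie above the WT samples (1.06% to 4.73%).

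Single reads of the arms were tested with limma among all 36070 unique reads that averaged at least 1 RPM. The unadjusted p was under 0.05 for 803 of these, or 2.23%, and 11 of the 343 reads of the 9 arms, or 3.21%, 6 higher and 5 lower in Tau tg. At an adjusted p under 0.05 it called 10 reads, or 0.0277%, and none from the 9 arms, whose lowest adjusted p was 0.262. This count of all reads was 0 without Tau tg 2, 2 without Tau tg 3 and 17 without WT 3. edgeR on the recovered reads called 49 reads after adjustment, of which 1 was from the arms, the 23-base read of miR-136-5p shown above (log2 difference -1.94, edgeR adjusted p = 0.0348, limma adjusted p = 0.584). Its level overlapped between the groups and was 2619 RPM in WT 2 against 80.3 to 456 RPM elsewhere. The lowest limma value belonged to the 22-base RefSeq form of miR-127-5p, picked out after its values were seen. It was at 10.3, 1.36 and 31.2 RPM in the WT samples, against 27.7, 163 and 89.6 RPM in the Tau tg samples, overlapping between Tau tg 1 and WT 3. The value of WT 2 lay below the 2.03 RPM that 3 reads stood for in that sample.
miR-127-5p, 22 bases: cTGAAGCtcagagggctctgat
Its log2 difference was 2.99 ± 0.82 (SE, limma adjusted p = 0.262). By contrast, the 23-base read that is the most abundant of the arm was at 55.7, 53.5 and 59.6 RPM in the WT samples, against 73.3, 121 and 117 RPM in the Tau tg samples.

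The other miRNAs of the same imprinted domain gave a setting for the 9 arms. Of 86 further arms listed for the domain, 81 were tested, and limma called 0 of them at an unadjusted p under 0.05 in either direction. edgeR and DESeq2 called 2 each at that threshold and 0 after adjustment. These were miR-412-3p in both, miR-3070-3p in edgeR and miR-673-3p in DESeq2, named after their values were seen, and each was above 20 RPM in no more than 1 sample. The median log2 difference of the 81 arms was 0.20, below the 0.25 of all 689 miRNAs. Of the 81, 55 were above 0, and no such count was made over all miRNAs. The nearest to the threshold in limma was miR-770-3p, also named after its values were seen, from the upstream part of the domain, at 126, 249 and 130 RPM in the WT samples, against 228, 507 and 273 RPM in the Tau tg samples (limma adjusted p = 0.896). The 67 arms of the downstream cluster, transcribed as Mirg, summed to 24508 ± 4626 RPM in the WT samples and 25391 ± 3064 RPM in the Tau tg samples (SD, n = 3), more than the 20620 and 20937 RPM of the 9 arms. Their sums were 24413, 29180 and 19930 RPM in the WT samples and 28115, 25984 and 22074 RPM in the Tau tg samples. As with the 9 arms, the highest value was in WT 2 and the lowest in WT 3.

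Among the 268 other miRNAs with a mean of at least 100 RPM, the 5 of the domain whose log2 level over the 6 samples was most like the summed log2 level of the 9 arms were miR-409-3p, miR-381-3p, miR-411-5p, miR-495-3p and miR-411-3p, all from Mirg. Their Pearson r ran from 0.983 for miR-409-3p to 0.844 for miR-411-3p. The 5 outside the domain were miR-872-5p, miR-152-3p, miR-24-2-5p, miR-144-3p and miR-873a-5p, with r from 0.981 to 0.896. The median r was 0.62 over 43 miRNAs of the domain and 0.21 over the rest. These values describe 6 samples that share the scaling of each library, and no test was made.

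Markers of cell types were summed to show what else varied among the samples. The neuronal list held 5 miRNAs that include miR-124-3p. It was at 128086, 130473 and 122058 RPM in the WT samples, against 118060, 127509 and 107069 RPM in the Tau tg samples. Its mean was lower in Tau tg, and the groups overlapped through Tau tg 2. None of the 7 lists had a marker at 0 in all samples, although miR-486a-5p of the list for vessels and red blood cells was not in the table. On the log2 scale, the Pearson r of each list with the summed log2 level of the 9 arms was highest for the 3 oligodendrocyte miRNAs, at 0.95. It was 0.77 for vessels and red blood cells, 0.66 for immune cells and microglia and 0.28 for neurons. For choroid plexus it was 0.052, for pituitary or other epithelium -0.44 and for hindbrain -0.85. The oligodendrocyte sums were 11099, 13591 and 8442 RPM in the WT samples and 13997, 10627 and 11009 RPM in the Tau tg samples, and overlapped between the groups. They were lowest in WT 3, as were the arms, but highest in Tau tg 1, whereas the RPM sum of the arms was highest in WT 2. The lists for immune cells and microglia (276 to 522 RPM) and for vessels and red blood cells (5251 to 11704 RPM) overlapped between the groups, as did that for choroid plexus (2684 to 11811 RPM) and that for hindbrain (163 to 542 RPM). The list for pituitary or other epithelium was at 2646, 6136 and 9087 RPM in the WT samples, against 2307, 2215 and 2673 RPM in the Tau tg samples, which overlapped through WT 1 and was high in WT 2 and WT 3. Their part in the levels of the 9 arms was not tested.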

How the data were processed

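Ago-bound short RNAs were pulled down by the study with a peptide derived from GW182. The authors trimmed the reads (Trim Galore is listed in the submitters' processing notes), removed rare reads and artificial sequences, annotated unique reads by BLAST and deposited RPM values, with a percent viability score for each 6mer seed. Low values are incomplete where rare reads were dropped. The deposited RPM values were whole multiples of 1 read for 100% of values (tolerance 0.1 reads), so counts were recovered for count models, and the 3-read floor covers counting error only.

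Rows were summed by miRNA name. limma 3.58.1 with a mean-variance trend tested log2(RPM + 1) where the average was at least 1 RPM, which understates the change of low rows, with Benjamini-Hochberg adjustment over all rows. Ratios and shares were compared by exact permutation tests over 20 assignments. Reads were placed on RefSeq hairpins with a templated start of at least 15 bases and a 3′ tail of up to 3 bases. edgeR 4.0.16 and DESeq2 1.42.0 (R 4.3.3) were run on the recovered reads, and the steps were tested on simulated data. All 9 arms matched RefSeq (GRCm38.p6), and gene positions were taken from GENCODE on GRCm38. Named were the 9 arms, the partner arm, up to 6 other arms of the domain with an unadjusted limma p under 0.05 (which none had), the 5 most similar miRNAs inside and outside the domain, and the most abundant reads. The members and lists were chosen with earlier results of these data known. Alternatives were other pseudocounts, filters and scalings, the count models, a block by replicate number and omission of each sample. The 5p to 3p ratio and read length over all hairpins and miRNAs and a longer Rtl1-derived template were added after seeing the data. P-values judge the difference between the 2 groups against the spread among these 6 samples.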

Additional observations from a re-analysis of the deposited data

How the results depend on the processing

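The number of miRNAs with an unadjusted p under 0.05 (25) stayed within 1.5 times under 15 of 16 alternatives and ranged from 18 to 50 with 1 sample left out, the latter without WT 1. The number of reads (803) was 2564 by edgeR, 167 of 3899 with a mean of at least 10 RPM, and 531 to 942 with 1 sample left out. At an adjusted p the 10 reads became 0 to 17 with 1 sample left out and 22 with the replicate block. The adjusted p of the 9 arms was at least 0.393 under every alternative. The call of miR-136-5p at an unadjusted p under 0.05 was lost without the filter, at a mean of at least 10 RPM, without the trend, with the replicate block (-1.16, limma adjusted p = 0.879) and without WT 1, WT 2, Tau tg 2 or Tau tg 3. Its log2 difference stayed negative throughout. miR-434-5p turned to -0.15 under median-of-ratios scaling, -0.094 when scaled to miRNA reads, -0.080 by edgeR and -0.12 by DESeq2, and ranged from -0.25 to 0.21 with 1 sample left out. miR-433-3p ranged from -0.023 to 0.50 and miR-434-3p from -0.23 to 0.017. The log2 difference of the miR-434 ratio ranged from -0.10 to 0.38, that of miR-433 from -1.41 to -0.19 (-0.016 with the most abundant read of each arm), that of miR-136 from -2.33 to -0.999 and that of miR-127 from 0.31 to 0.56. For the share of the common seed, the difference in percentage points changed sign for miR-431-5p (-0.37 to 4.57), miR-433-3p (-2.52 to 0.33) and miR-434-5p (-6.86 to 5.05) when 1 sample was left out. For untemplated 3′ ends it changed sign for miR-431-5p (-7.15 to 2.19), miR-127-5p (-7.26 to 1.52), miR-127-3p (-2.14 to 1.34), miR-434-5p (-1.87 to 0.28) and miR-136-3p (-1.48 to 0.00026). The causes were not tested. The sample names do not say whether replicate numbers pair the samples. Correlations were -0.00201, -0.0693 and 0.0413 between same-numbered samples and -0.127 to 0.106 between the others, which cannot settle it. The block by replicate number changed no other call among the 9 arms. With 3 samples per group no exact test could go below 0.1, and miR-433-5p rested on 65 to 347 reads per sample.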
